A study of Mus musculus with 16 samples.

Results

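The 10 genes described here belong to the AP-1 transcription factor network and were followed through a brief pulse of ERK signalling in mouse embryonic stem cells. They were the 4 Fos family genes (Fos, Fosb, Fosl1, Fosl2), the 3 Jun family genes (Jun, Junb, Jund), the related factor Atf3 and the small Maf genes Maff and Mafk. They were chosen by symbol as a gene family, with earlier results of these data known, and all 10 were found among the 52636 gene identifiers counted.

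The cells were CRAFR26, a mouse embryonic stem cell line with a c-RAF kinase construct that is switched on by 4-hydroxytamoxifen (4OHT). RAF kinases activate MEK, which activates ERK. The line was routinely kept in N2B27 medium with LIF (1000 U/ml), the GSK3 inhibitor CHIR99021 (3 µM) and the MEK inhibitor PD0325901 (1 µM). For 48 h before the experiment all 4 groups had the FGF receptor inhibitor PD173074 (250 nM) in place of that MEK inhibitor. The 0h group received no 4OHT, and the 2h and 4h groups received 250 nM 4OHT for 2 h and 4 h. The group named rev received 4OHT for 4 h and a MEK inhibitor for a further 2 h. Each group held 4 RNA-seq libraries, 2 from clone 4 and 2 from clone 8. There was no vehicle control and no 6 h culture without the MEK inhibitor, so the effects of 4OHT itself and of the further 2 h cannot be told apart from those of the construct and of the inhibitor. The labels do not say whether libraries of 1 group and clone came from separate cultures, so the p-values measure only the spread between these libraries, which may be technical.

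Libraries held 2172651 to 12680303 counts. Levels are given in CPM, a gene's counts brought to a common library size and scaled for library composition. A count of 3, taken as the detection floor, was worth 0.213 to 1.35 CPM depending on the library, and floors and counting intervals here cover counting error only. All 6 embryonic stem cell markers examined (Pou5f1, Nanog, Sox2, Zfp42, Esrrb, Tfcp2l1) were detected in every library, with summed levels of 1455 to 2067 CPM. Summed markers stood at 3.26 to 6.76 CPM for primitive endoderm, at 29.8 to 52.2 CPM for trophectoderm (of which Tfap2c alone made 20.3 to 47.1) and at 2.44 to 8.56 CPM for fibroblasts, whose Dcn was at 0 in every library. The 4 markers of 2-cell-like cells summed to 2.24 to 5.70 CPM at 0h, 5.18 to 8.32 at 2h, 7.79 to 9.35 at 4h and 2.98 to 9.34 in rev. All 4h sums lay above all 0h sums, and every other pair of groups overlapped. Neither a difference in these sums nor their part in the results was tested. In bulk RNA a change in the share of a cell type and a change in RNA per cell cannot be told apart. One rev library (clone 8 replicate 2) had 80.4% of its counts in the 8 most abundant gene models, but without it the number of these genes called was the same in all 5 comparisons.

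AP-1 is a family of dimers of basic leucine zipper (bZIP) proteins that bind the TPA response element (TRE) and the related cAMP response element (CRE). Fos proteins need a Jun partner to bind DNA, whereas Jun proteins can also pair with each other. Fos is a classical immediate-early gene: ERK phosphorylates the ternary complex factors bound with SRF at the serum response element of its promoter, and transcription starts within minutes. Fosl1 depends more on sustained ERK signalling, and ERK also stabilises Fos and Fosl1 proteins by phosphorylation. Junb and Jund are often weaker activators than Jun, and Atf3 is a stress-induced bZIP factor that pairs with Jun proteins. The small Maf proteins lack a transactivation domain and act as partners of the Nfe2 and Bach factors.

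RefSeq promoter windows (GRCm38.p6) were matched for 9 of the 10 genes, in 11 windows, of which only the 250 bases before the annotated start were used. A few are printed 5′ to 3′ on the coding strand, because these genes were induced and their windows held a CRE-type or TRE-like match. Capitals mark the matches. The windows are Fos at chr12:85473640-85473889 (plus strand), Jun at chr4:95052223-95052472 (minus strand), Junb at chr8:84978749-84978998 (minus strand) and an internal start of Maff at chr15:79347270-79347519 (plus strand), which GENCODE M21 places in an intron of the longer Maff transcript.
Fos: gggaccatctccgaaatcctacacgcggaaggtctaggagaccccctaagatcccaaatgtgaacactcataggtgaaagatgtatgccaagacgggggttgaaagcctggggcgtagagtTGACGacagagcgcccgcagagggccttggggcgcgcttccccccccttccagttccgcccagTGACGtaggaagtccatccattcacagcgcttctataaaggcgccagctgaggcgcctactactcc
Jun: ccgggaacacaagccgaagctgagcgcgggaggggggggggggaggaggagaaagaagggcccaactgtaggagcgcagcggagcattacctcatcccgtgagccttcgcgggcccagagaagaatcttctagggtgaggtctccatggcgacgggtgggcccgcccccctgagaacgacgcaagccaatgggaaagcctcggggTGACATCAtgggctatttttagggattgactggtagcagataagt
Junb: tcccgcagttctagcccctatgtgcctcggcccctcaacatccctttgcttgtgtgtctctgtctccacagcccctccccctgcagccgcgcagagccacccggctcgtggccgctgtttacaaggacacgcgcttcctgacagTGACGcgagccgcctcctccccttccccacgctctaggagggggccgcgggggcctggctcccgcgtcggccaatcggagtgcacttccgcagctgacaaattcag
Maff: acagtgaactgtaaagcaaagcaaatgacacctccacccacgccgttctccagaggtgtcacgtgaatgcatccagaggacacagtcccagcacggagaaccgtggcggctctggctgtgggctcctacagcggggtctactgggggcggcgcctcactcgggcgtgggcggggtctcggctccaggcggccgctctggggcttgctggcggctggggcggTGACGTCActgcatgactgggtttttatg
In the Fos window the CRE core TGACG began 129 and 66 bases before the start. The Jun window held the TRE-like TGACATCA 45 bases before the start, a site known as a binding site of Jun and Atf2 dimers. The Junb window held TGACG 106 bases before a RefSeq start that lies 30 bases upstream of the GENCODE start. The Maff window held the full palindromic CRE, TGACGTCA, 29 bases before its start, which contains the CRE core on each strand. The windows of Fosb, Atf3 and Mafk also held TGACG on one strand, and the window of a further Maff start held both TGACG and, 45 bases before that start, TGACATCA. The windows of Fosl2, of Jund and of the outermost Maff start held none of the motifs searched. The RefSeq starts used for Fosl2, Jund and Atf3 lie 671, 1210 and 34706 bases from the GENCODE starts of these genes. Their windows therefore do not describe the bases before the GENCODE start. Among all 32851 RefSeq windows of this length, searched on both strands, 17.8% held TGACG, 1.55% TGACGTCA, 2.93% TGACATCA and 6.75% the TRE, TGANTCA. The CArG box, the SRF site, was found in 1.47% of windows. None of the 11 windows of these genes held the TRE or the CArG box in these letters, and the known serum response element of Fos lies further upstream than the window. Such matches are descriptions of sequence and were not tested against the counts.

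Within 2 h of induction Fos, Fosl2, Jun and Junb rose, and so, by less, did Maff and Mafk. By 4 h Fos and Jun had fallen from their 2h level, Junb, Fosl2, Maff and Mafk had not passed the test of a further change, and Fosl1 was now above 0h. After MEK inhibition Fos, Fosl1, Junb and Maff fell, while Fosl2 stood at the level of the induced cells. Jund passed the test in none of the 5 comparisons. Fosb and Atf3 had too few counts to enter the fit and are described by their counts.

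**Figure D1:**
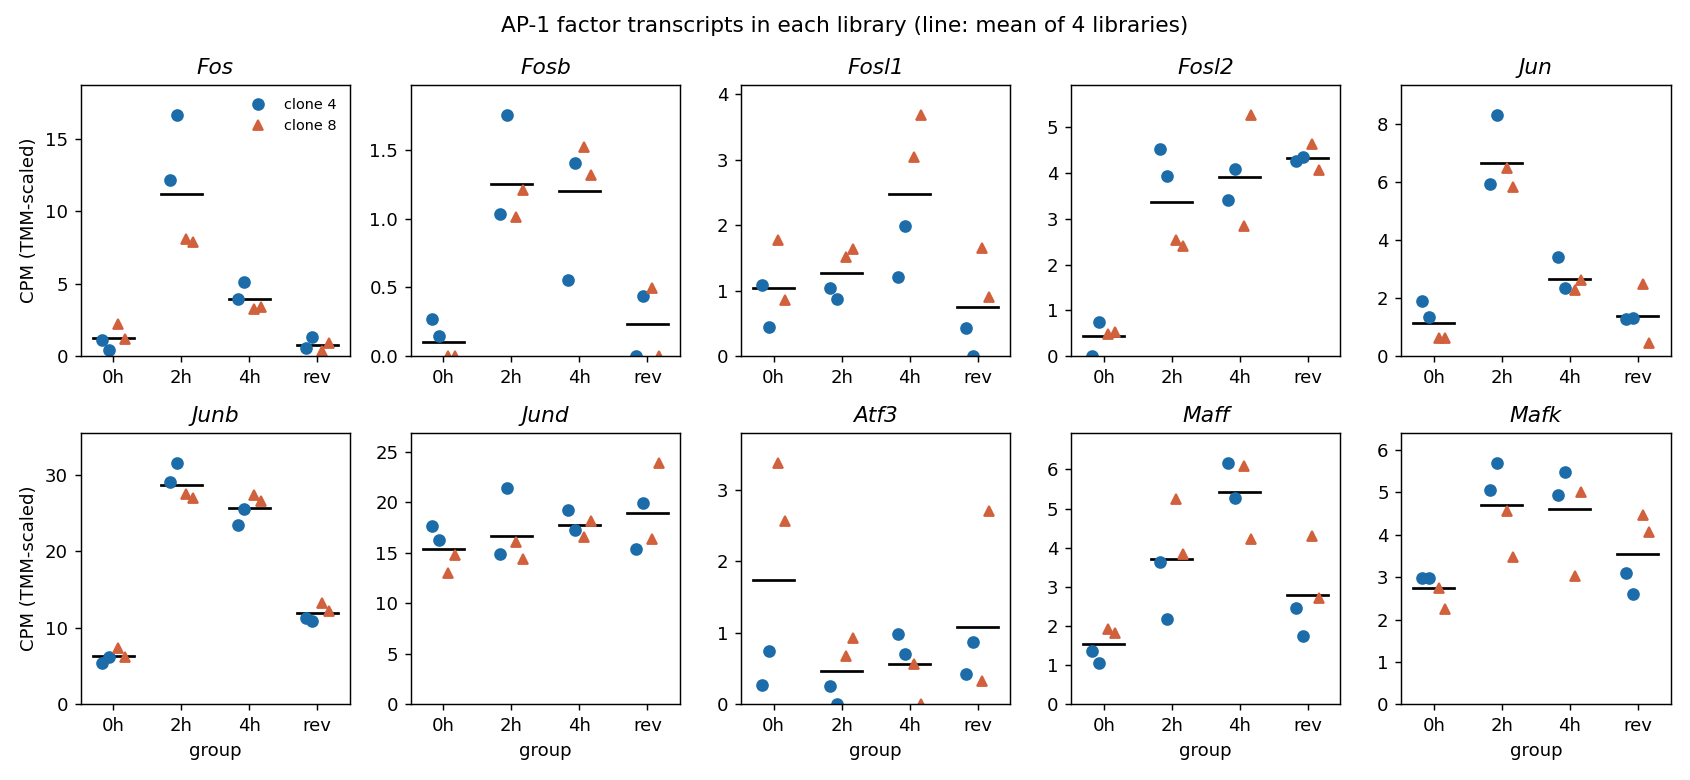
Level of each of the 10 genes in CPM (vertical axes, a separate linear scale per gene) in the 16 libraries by group (0h, 2h, 4h, rev). Blue circles are clone 4 libraries, orange triangles clone 8 libraries and each horizontal bar is the mean of a group of 4. Fos and Jun are highest at 2h, Junb is high at 2h and 4h, Fosl2 is high in the 3 groups given 4OHT, and the 4 Jund groups overlap.

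Fos (ENSMUSG00000021250, chromosome 12, 85473890 to 85477273, plus strand, GRCm38) encodes the founding Fos protein. In CPM, with clone 4 replicates 1 and 2 given before clone 8 replicates 1 and 2 here and for the genes that follow, it measured 1.09, 0.448, 2.25 and 1.18 at 0h and 12.2, 16.6, 8.11 and 7.88 at 2h. At 4h the libraries measured 3.96, 5.14, 3.23 and 3.42 CPM, and in rev 0.533, 1.30, 0.331 and 0.901 CPM. All 2h libraries stood above all others, the 4h libraries lay between the 2h and 0h libraries, and the rev and 0h libraries overlapped. The log2 fold change was 3.00 at 2h against 0h (SE 0.26, edgeR quasi-likelihood test, adjusted p 1.11e-10), an 8.00-fold rise of the fitted level. It was 1.59 at 4h against 0h (SE 0.32, adjusted p 2.46e-04). Between 2h and 4h Fos fell by 1.41 on the log2 scale (SE 0.21, adjusted p 2.49e-05), and from 4h to rev it fell by 2.56 (SE 0.39, adjusted p 9.80e-06). Thus most of the Fos transcript gained at 2h was gone at 4h although 4OHT was still present. Rev against 0h gave -0.96 (95% interval -1.98 to 0.05, adjusted p 0.164), so a difference was not called, and without the 0h clone 4 replicate 2 library it was (-1.40, adjusted p 0.0348).

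Fosb (ENSMUSG00000003545, chromosome 7, 19302696 to 19310051, minus strand) encodes a Fos protein best known in neurons. Its counts were 1, 1, 0 and 0 at 0h, 8, 4, 12 and 17 at 2h, 5, 12, 8 and 5 at 4h, then 0, 2, 3 and 0 in rev. Every 2h and 4h library held more Fosb counts than any 0h or rev library. Over summed counts per scaled library size, 2h was 14.8 times 0h (41 against 2 counts, 95% counting interval 3.85 to 126) and 4h was 14.6 times 0h (30 against 2, 3.70 to 126). Rev was 0.200 of 4h (5 against 30 counts, 0.0607 to 0.521). In a fit without the low-count filter (31361 genes), Fosb was higher at 2h against 0h (log2 fold change 3.63, SE 0.65, adjusted p 1.82e-06) and at 4h against 0h (3.63, SE 0.68, adjusted p 3.19e-06). It was lower in rev against 4h in that fit (-2.25, SE 0.57, adjusted p 0.00297), and rev against 0h was not called (1.38, adjusted p 0.611). Fosb was therefore detectable mainly in the 2 groups given 4OHT without the MEK inhibitor, at about 1 CPM.

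Fosl1 (ENSMUSG00000024912, chromosome 19, 5447547 to 5455946, plus strand) encodes Fra-1, the Fos protein most often tied to sustained ERK activity. It measured 1.09, 0.448, 1.77 and 0.855 CPM at 0h and 1.04, 0.876, 1.52 and 1.63 CPM at 2h. At 4h it measured 1.21, 1.99, 3.04 and 3.68 CPM, and in rev 0.426, 0, 1.66 and 0.901 CPM. The 2h libraries lay within the range of the 0h libraries, and within each clone both 4h libraries were above all other libraries of that clone. The 2h against 0h difference was 0.38 on the log2 scale (95% interval -0.38 to 1.14, adjusted p 0.511), and 4h against 0h was 1.36 (SE 0.36, adjusted p 0.00355). The step from 2h to 4h was 0.98 (95% interval 0.33 to 1.64), just short of the threshold (adjusted p 0.0552). With only these 2 groups in the fit it passed (0.93, adjusted p 0.0426). From 4h to rev Fosl1 fell by 1.62 (SE 0.40, adjusted p 0.00397), and rev against 0h was -0.26 (95% interval -1.22 to 0.71, adjusted p 0.744). Without the clone term the 4h against 0h and rev against 4h calls were lost (adjusted p 0.0981 and 0.0787). The Ccdc85b gene overlaps 1163 bases of Fosl1 exons on the opposite strand and, as strand use in the counting was not given, reads there cannot be told apart; Ccdc85b itself was called in none of the 5 comparisons (log2 fold changes -0.19 to 0.28).

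Fosl2 (ENSMUSG00000029135, chromosome 5, 32135801 to 32157842, plus strand) encodes Fra-2. It was nearly absent before induction, at 0, 0.746, 0.482 and 0.535 CPM. The libraries measured 4.53, 3.94, 2.53 and 2.41 CPM at 2h, 3.41, 4.09, 2.85 and 5.26 CPM at 4h, and 4.26, 4.34, 4.64 and 4.06 CPM in rev. Every 4OHT-treated library, with or without the MEK inhibitor, was above every 0h library, and the 2h, 4h and rev ranges overlapped. The log2 fold change against 0h was 2.59 at 2h (SE 0.37, adjusted p 2.45e-06), 2.83 at 4h (SE 0.37, adjusted p 2.49e-07) and 3.04 in rev (SE 0.37, adjusted p 2.43e-07). Fosl2 was the one tested Fos family gene still called above 0h after MEK inhibition. Rev against 4h was 0.20 (95% interval -0.29 to 0.70, adjusted p 0.621), which leaves room for a moderate change in either direction. With library size alone as the scaling that value was -0.21.

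Jun (ENSMUSG00000052684, chromosome 4, 95049034 to 95052222, minus strand, a single exon) encodes the main partner of Fos. It measured 1.90, 1.34, 0.643 and 0.641 CPM at 0h and 5.96, 8.32, 6.50 and 5.82 CPM at 2h. The 4h libraries measured 3.41, 2.34, 2.28 and 2.63 CPM, and the rev libraries 1.28, 1.30, 2.49 and 0.451 CPM. As for Fos, the 2h libraries were above all others and the 4h libraries lay between 2h and 0h, but here rev overlapped both 4h and 0h. Jun rose by 2.64 on the log2 scale at 2h against 0h (SE 0.28, adjusted p 6.67e-09) and was 1.38 above 0h at 4h (SE 0.34, adjusted p 0.00197). Between 2h and 4h it fell by 1.26 (SE 0.23, adjusted p 3.59e-04). Rev against 4h was -0.82 (95% interval -1.47 to -0.17, adjusted p 0.0766) and was not called, and without the rev clone 8 replicate 1 library it was (-1.28, adjusted p 0.0152). Rev against 0h was 0.56 (95% interval -0.25 to 1.37, adjusted p 0.330).

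Junb (ENSMUSG00000052837, chromosome 8, 84974484 to 84978718, minus strand) encodes a Jun protein that can oppose Jun on some promoters. It measured 5.43, 6.12, 7.40 and 6.20 CPM at 0h and 29.0, 31.5, 27.5 and 26.9 CPM at 2h. At 4h it measured 23.4, 25.5, 27.3 and 26.6 CPM, and in rev 11.3, 10.9, 13.3 and 12.2 CPM. The 0h, rev and induced libraries formed 3 ranges that did not overlap, while 2h and 4h overlapped. Junb rose by 2.14 at 2h (SE 0.11, adjusted p 2.59e-16) and was 2.01 above 0h at 4h (SE 0.12, adjusted p 1.91e-15), both on the log2 scale. The 4h against 2h difference was -0.13 (95% interval -0.32 to 0.05, adjusted p 0.445). From 4h to rev Junb fell by 1.10 (SE 0.11, adjusted p 2.81e-09) and in rev it stood 0.91 above 0h (SE 0.14, adjusted p 1.09e-05). The rev against 0h call was lost when libraries were scaled by size alone (0.59, adjusted p 0.136). Prdx2 overlaps 173 bases of Junb exons on the opposite strand, at a mean of 52.6 CPM, and reads there cannot be told apart. Its log2 fold changes were opposite in sign to those of Junb at 2h (-0.34) and 4h (-0.12) against 0h. From 4h to rev it fell, as Junb did, by 0.40 (SE 0.11, adjusted p 0.0113).

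Jund (ENSMUSG00000071076, chromosome 8, 70698949 to 70700616, plus strand, a single exon) encodes the Jun protein that most resting cells carry. It measured 17.7, 16.3, 13.03 and 14.8 CPM at 0h, 14.9, 21.5, 16.1 and 14.3 CPM at 2h, 19.2, 17.3, 16.5 and 18.2 CPM at 4h, and 15.4, 19.98, 16.4 and 23.9 CPM in rev. The ranges of all 4 groups overlapped. On the log2 scale Jund differed from 0h by 0.06 at 2h (95% interval -0.20 to 0.31, adjusted p 0.785), by 0.22 at 4h (-0.04 to 0.47, adjusted p 0.191) and by 0.22 in rev (adjusted p 0.239). The intervals at 2h and 4h exclude changes of the size seen for Junb. Gm11175, which overlaps 877 of the 1668 exon bases of Jund on the opposite strand, had 0 counts in all libraries. As strand use in the counting was not given, it is not known whether reads in these shared bases were counted for Jund.

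Atf3 (ENSMUSG00000026628, chromosome 1, 191170296 to 191218039, minus strand) had at most 24 counts in a library. Its counts were 1, 5, 21 and 24 at 0h, 2, 0, 8 and 13 at 2h, 9, 6, 3 and 0 at 4h, then 4, 4, 2 and 6 in rev. In CPM these were 0.272, 0.746, 3.38 and 2.57 at 0h, 0.259, 0, 0.676 and 0.923 at 2h, 0.990, 0.701, 0.570 and 0 at 4h, then 0.426, 0.869, 0.331 and 2.70 in rev. The highest group was 0h, and within it the clone 8 libraries lay above the clone 4 libraries. Without the low-count filter Atf3 was lower at 2h against 0h (log2 fold change -1.65, SE 0.36, adjusted p 2.02e-04) and at 4h against 0h (-1.22, SE 0.39, adjusted p 0.0172). The change at 4h was -3.09 within clone 8 and 0.57 within clone 4. It did not share the 2h rise of Fos, Jun and Junb, and its means rest on the clone 8 libraries at 0h.

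Maff (ENSMUSG00000042622, chromosome 15, 79346621 to 79359076, plus strand) is the small Maf gene known to respond to stimuli. It measured 1.36, 1.04, 1.93 and 1.82 CPM at 0h and 3.62, 2.1896, 5.24 and 3.83 CPM at 2h. At 4h it measured 6.16, 5.26, 6.08 and 4.21 CPM, and in rev 2.45, 1.74, 4.31 and 2.70 CPM. All 2h and 4h libraries lay above all 0h libraries, and rev overlapped the other 3 groups. Maff rose by 1.34 at 2h (SE 0.26, adjusted p 2.81e-04) and was 1.88 above 0h at 4h (SE 0.26, adjusted p 6.01e-07) on the log2 scale. The 4h against 2h difference of 0.54 was not called (95% interval 0.12 to 0.96, adjusted p 0.109), but was called without the 4h clone 8 replicate 2 library (0.70, adjusted p 0.0434). From 4h to rev Maff fell by 0.98 (SE 0.23, adjusted p 0.00327). Rev stood 0.91 above 0h (SE 0.30, adjusted p 0.0295). That last call was lost without any of 4 single libraries: 0h clone 4 replicate 2, 0h clone 8 replicate 2, rev clone 4 replicate 1 and rev clone 8 replicate 1 (adjusted p 0.0546 to 0.214). It was also lost without the clone term (0.85, adjusted p 0.0948) and with library size alone (0.58, adjusted p 0.306).

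Mafk (ENSMUSG00000018143, chromosome 5, 139791513 to 139802653, plus strand) encodes a widely expressed small Maf. It measured 2.99, 2.98, 2.73 and 2.24 CPM at 0h, 5.05, 5.69, 4.56 and 3.48 CPM at 2h, 4.95, 5.49, 3.04 and 4.999 CPM at 4h, and 3.09, 2.61, 4.47 and 4.06 CPM in rev. The 2h and 4h libraries were above the 0h libraries by a small margin, and rev overlapped both. Mafk had the smallest rise of the called genes at 2h, 0.73 on the log2 scale (SE 0.22, adjusted p 0.0179), and 0.78 at 4h against 0h (SE 0.23, adjusted p 0.0091). Rev against 4h was -0.43 (adjusted p 0.204) and rev against 0h 0.35 (adjusted p 0.344). The 2h call was lost without any of 3 single libraries: 0h clone 8 replicate 2, 2h clone 4 replicate 1 and 2h clone 8 replicate 1 (adjusted p 0.0532 to 0.0879). It was also lost without the clone term (0.73, adjusted p 0.0534) and with library size alone (0.74, adjusted p 0.255).

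**Figure D2:**
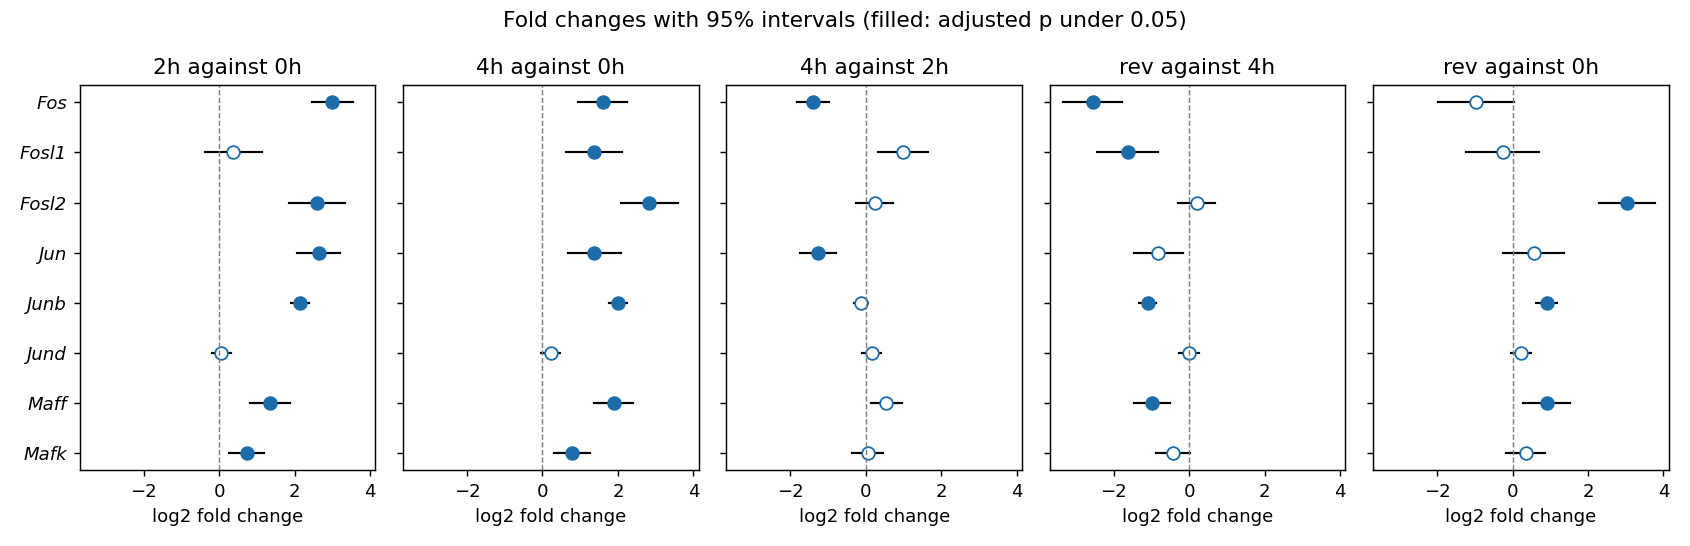
Log2 fold changes with 95% intervals (edgeR) for the 8 genes that entered the fit, in each of the 5 comparisons. Filled symbols mark an adjusted p under 0.05, and the vertical line marks no change. Fos moves from 3.00 at 2h against 0h to -1.41 at 4h against 2h, Fosl2 stays to the right of 0 in all 3 comparisons with 0h, and no Jund symbol is filled.

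At 2h against 0h, 6 of the 8 tested genes were higher and 0 lower, where 11.4% of all 12215 tested genes were called higher and 9.68% lower. At 4h against 0h, 7 were higher and 0 lower, against 17.2% higher and 16.8% lower among all genes. Between 2h and 4h, 2 were lower (Fos and Jun) and 0 higher, against 3.52% lower and 3.8% higher. From 4h to rev 4 were lower (Fos, Fosl1, Junb and Maff) and 0 higher, against 8.43% lower and 7.93% higher, and in rev against 0h 3 were higher (Fosl2, Junb and Maff) and 0 lower, against 12.4% higher and 9.86% lower. The split over all genes depended on the scaling. With library size alone 554 genes were higher and 327 lower at 4h against 0h (2098 and 2048 with TMM), 88 and 12 from 2h to 4h (464 and 430), 57 and 1671 from 4h to rev (969 and 1030), and 105 and 905 in rev compared with 0h (1518 and 1204). The counts of 0 came from the edgeR test, and without adjustment p was under 0.05 for 2 genes higher at 4h against 2h and for 0 genes in the other directions that had 0 calls. DESeq2 gave the same calls for all 8 genes in all 5 comparisons.

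These counts do not stand for all 10 genes. The filter asked for about 1.54 CPM of the unscaled library total in 4 libraries, and only Junb, Jund and Mafk reached it in every 0h library. Fos, Fosl1, Fosl2, Jun and Maff passed through groups in which they were high, so that for them a difference was in part built into the selection. Groups did not overlap for 6 tested genes at 2h against 0h (all higher; 8.83% of all genes did not overlap in this direction and 6.62% in the other) and for 6 at 4h against 0h (12.3% higher, 10.8% lower), Fosl1 being the called gene whose groups overlapped. They did not overlap for Fos and Jun between 2h and 4h (4.03% lower, 4.32% higher), for Fos and Junb from 4h to rev (6.79% lower, 6.48% higher), and for Fosl2 and Junb in rev compared with 0h (9.59% higher, 7.19% lower).

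Of the 8 tested genes 2, Fosl1 and Fos, were called for a difference in level between the clones. This is near the share of all tested genes called for the clone in either direction, 29.1%. Atf3 was called in the fit without the filter (higher in clone 8 by 1.08, SE 0.31, adjusted p 0.00636), for which no such share was taken. Over all groups Fosl1 was higher in clone 8 than in clone 4 by 1.07 on the log2 scale (SE 0.28, adjusted p 0.00306), and in CPM it averaged 3.36 in clone 8 against 1.60 in clone 4 at 4h. Fos was lower in clone 8 by 0.50 (log2 difference -0.50, SE 0.19, adjusted p 0.045). This fitted average did not hold at 0h, where Fos averaged 1.71 CPM in clone 8 and 0.767 in clone 4, but did at 2h, with 8.00 and 14.4 CPM. The Fos rise at 2h was 4.28 in clone 4 (SE 0.41) and 2.29 in clone 8 (SE 0.30) on the log2 scale, and the difference between the clones, -1.99 (SE 0.62), did not pass the test (unadjusted p 0.00299, adjusted p 0.254). Of 40 tests of a difference in response (8 genes in 5 comparisons) 0 passed, and 4 had an unadjusted p under 0.05: Fos at 2h and at 4h against 0h, Mafk from 4h to rev, and Jun in rev compared with 0h. Among all genes 0.0901% were called for this difference at 2h and 0.311% at 4h against 0h, 0.0327% from 2h to 4h, 0.00819% from 4h to rev and 0.0573% for rev set against 0h. The rise of Fos at 2h was thus called in each clone, and a difference in its size was not called. Some other calls were not met in both clones. At 4h against 0h Fos was 2.71 in clone 4 (edgeR adjusted p 4.82e-05) and 1.03 in clone 8 (0.0758). Jun was 0.89 (0.124) and 1.89 (0.0103), Fosl1 1.21 (0.144) and 1.42 (0.0215). From 4h to rev Fosl1 was -2.41 (0.0136) and -1.19 (0.177), Maff -1.37 (0.00231) and -0.45 (0.518). Mafk at 2h and 4h, and Maff in rev against 0h, were called in neither clone. The Fos clone difference was lost with library size alone (adjusted p 0.0825) and without any 1 of the 2h libraries, of the 4h libraries other than clone 4 replicate 1, or of rev clone 4 replicate 2 and rev clone 8 replicate 1. The largest adjusted p was 0.168, without 2h clone 4 replicate 2 (-0.37).

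Levels can be set side by side only per length, so CPM were divided by the length of the gene's merged exons in kilobases. On that scale (CPM per kilobase) Jund led at 0h with 9.25 ± 1.19 (SD, n = 4), ahead of Junb with 2.73 ± 0.355. The next 6 genes at 0h, from Atf3 (0.808) to Jun (0.355), had ranges that overlapped from each to the next, and Fosl2 (0.0455) and Fosb (0.0168) came last. At 2h Junb (12.5 ± 0.899) and Jund (10.003 ± 1.95) overlapped at the top, followed without overlap by Fos (4.76 ± 1.75) and then Jun (2.09 ± 0.361). At 4h Junb (11.2 ± 0.739) and Jund (10.7 ± 0.703) overlapped again, and Maff (2.09 ± 0.350), Fos (1.67 ± 0.366), Fosl1 (1.22 ± 0.540), Mafk (1.18 ± 0.277) and Jun (0.835 ± 0.163) followed, each overlapping the next. In rev the order at the top returned to Jund (11.3 ± 2.32) over Junb (5.17 ± 0.460), without overlap. From Maff (1.08) down to Fos (0.326 ± 0.182) the ranges overlapped from each gene to the next. The mean of Fos was above only that of Fosb (0.0373 ± 0.0433), whose range it did not overlap. Per length of the longest transcript Junb reached 15.9 at 2h, and it no longer overlapped Jund: Junb spanned 14.9 to 17.4 and Jund 8.60 to 12.9 at 2h, and Junb 12.95 to 15.1 and Jund 9.90 to 11.5 at 4h. The overlap of Junb and Jund in these groups therefore depends on the gene model used for length. The level of Jund per length, and its shares below, also depend on how reads in the bases shared with Gm11175 were counted, which is not known.

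Within the 7 Fos and Jun genes the make-up of the transcripts shifted. Jund made 68.7% ± 6.27 (SD, n = 4) of the summed length-scaled level at 0h, 32.7% ± 2.02 at 2h, 40.8% ± 3.05 at 4h, then 62.2% ± 5.99 in rev. Junb made 20.5% ± 3.45, 41.3% ± 3.15, 42.7% ± 2.45 and 28.8% ± 3.76 in the same groups. The Fos share was 3.96% ± 2.47, 15.3% ± 3.40, 6.41% ± 1.47 and 1.78% ± 0.947, while that of Fosl2 went from 0.348% ± 0.247 at 0h to 2.501% ± 0.373 in rev. The whole Fos family made 3.83% to 14.3% of the sum at 0h, 16.4% to 21.9% at 2h, 10.7% to 14.7% at 4h and 5.70% to 8.47% in rev. Jun family transcripts thus outweighed Fos family transcripts in every library, and the Fos family share at 2h was above that of every other library. These shares are descriptions with no test, and they concern transcripts, not proteins.

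**Figure D3:**
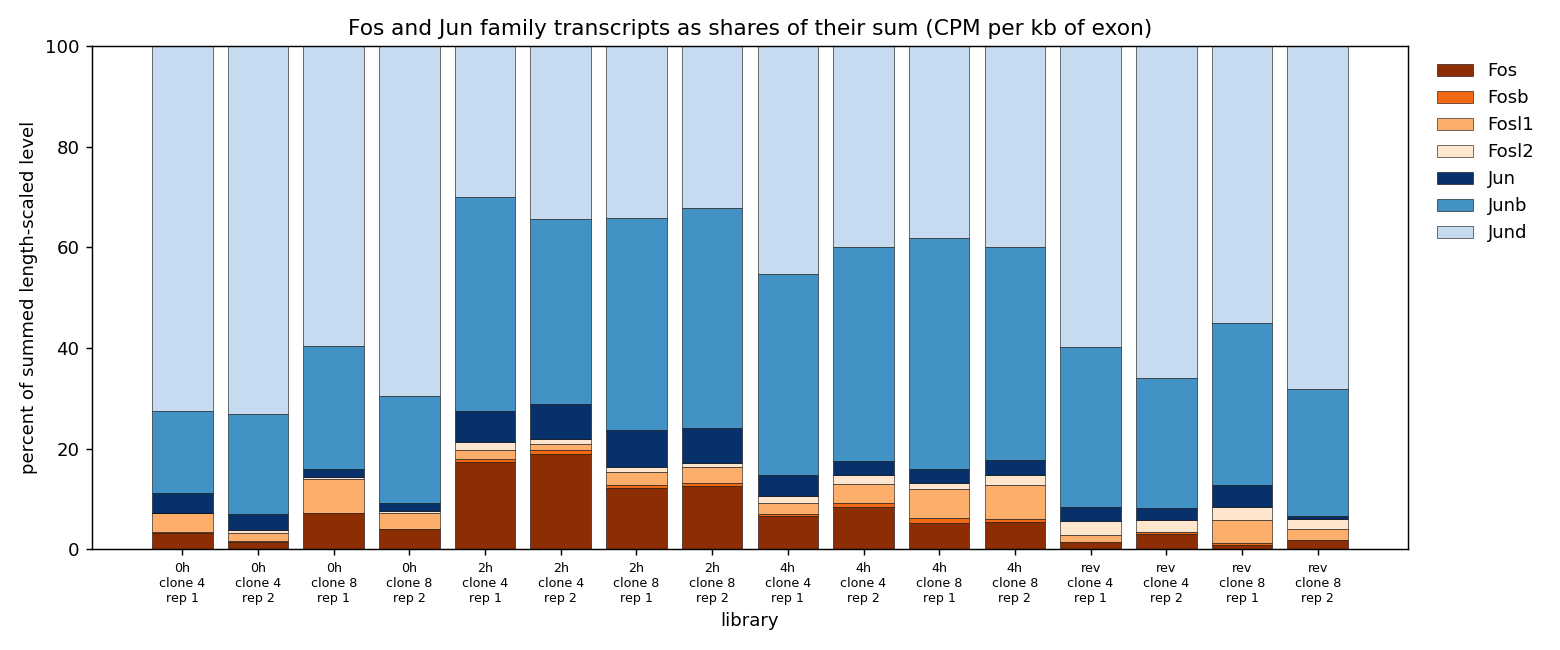
Share of each Fos and Jun gene (percent, vertical axis) in the summed length-scaled level of the 7 genes, stacked for each of the 16 libraries. Jund averages 68.7% at 0h and 32.7% at 2h, Junb 20.5% and 41.3%, and Fos 3.96% and 15.3%.

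Over the 16 libraries the log2 CPM of Fos correlated with that of Jun (Pearson r 0.77) and Junb (0.79), less with Fosl2 (0.29) and Fosl1 (0.34), and not with Jund (0.00). Junb correlated with Maff (0.80), Mafk (0.76) and Fosl2 (0.74). Among 9178 tested genes outside the set with at least 5 CPM in a group, the genes most like Fos were Egr1 (r 0.93), Dnajb1 (0.93) and Pnrc1 (0.92). The genes most like Junb were Phlda1 (0.97), Arc (0.97) and Cdc42ep4 (0.96), and those most like Fosl1 were Nop10 (0.87), Zfp459 (0.86) and Adprh (0.86). Egr1 and Arc are immediate-early genes, and Dnajb1 is a heat shock chaperone. All these correlations are descriptions over libraries that share groups and clones.

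Genes around AP-1 were read from 4 lists against the same shares of all tested genes. These were 11.4% higher and 9.68% lower at 2h and 17.2% higher and 16.8% lower at 4h against 0h. They were 3.8% and 3.52% from 2h to 4h, 7.93% and 8.43% from 4h to rev, and 12.4% and 9.86% for rev compared with 0h. Of 26 other bZIP genes 21 were tested, and at 4h against 0h 4 were higher and 5 lower (median log2 fold change -0.00, all genes -0.02), near those shares. Those of at least 5 CPM that rose were Atf1 (0.60, SE 0.09, adjusted p 5.22e-06), Atf2 (0.38, SE 0.08, adjusted p 4.50e-04), a Jun partner, and Atf6 (0.29, SE 0.11, adjusted p 0.034). Atf4 (-0.38, SE 0.07, adjusted p 1.63e-04) and Ddit3 (-0.98, SE 0.28, adjusted p 0.00757), both factors of the integrated stress response, fell. The remaining called genes had means under 5 CPM at 0h and 4h. Jdp2 (-1.61, SE 0.26, edgeR adjusted p 7.87e-06), Nfe2l3 (-1.45, SE 0.25, adjusted p 2.09e-05) and Mafa (-1.19, SE 0.25, adjusted p 3.99e-04) were lower, by more than Atf4 and Ddit3. Cebpd was higher (1.08, SE 0.40, adjusted p 0.0343). The same list had 4 higher and 4 lower at 2h against 0h, 0 and 1 from 2h to 4h, 1 and 1 from 4h to rev, and 2 and 5 for rev compared with 0h.

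Of 7 genes for SRF and its ternary complex factors, which carry the ERK signal to the Fos promoter, 6 were tested. At both 2h and 4h compared with 0h 2 were higher and 0 lower, and for rev compared with 0h 2 were higher and 1 lower (12.4% and 9.86% of all genes), with 0 calls in the other comparisons. At 2h against 0h the median over the 6 was 0.10 (all genes -0.02). Srf had 21.7 ± 3.70 CPM at 0h, rose to 43.1 ± 6.51 by 2h and stood at 42.3 ± 4.51 at 4h, then 39.9 ± 2.35 in rev. Its log2 fold change was 0.97 at 4h against 0h (SE 0.09, adjusted p 3.29e-10) and 0.87 in rev against 0h (SE 0.10, adjusted p 4.11e-08). Elk4, a ternary complex factor, was higher by 0.57 at 4h (SE 0.11, adjusted p 1.14e-04). As with Fosl2, rev against 4h was small for Srf (-0.10, adjusted p 0.458).

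Of 15 kinase and ubiquitin ligase genes that act on Fos and Jun proteins, 14 were tested, with 1 higher and 0 lower at 2h and 4 higher and 2 lower at 4h against 0h (median 0.08, all genes -0.02). With 17.2% higher and 16.8% lower among all genes at 4h, the 2 lower genes are near the background. Those that rose included the JNK kinase gene Map2k4 (0.51, SE 0.10, adjusted p 1.70e-04) and Fbxw7 (0.24, SE 0.08, adjusted p 0.0231), a ubiquitin ligase that takes Jun as a substrate. The RSK kinase gene Rps6ka2 (-0.61, SE 0.15, adjusted p 0.00145) and the JNK2 gene Mapk9 (-0.35, SE 0.09, adjusted p 0.00355) fell. These changes were smaller than those of the induced Fos and Jun genes. The list had 0 higher and 1 lower both from 2h to 4h and from 4h to rev, and 3 and 1 for rev compared with 0h. Among all genes 3.8% were higher and 3.52% lower from 2h to 4h, and 7.93% and 8.43% from 4h to rev. For rev compared with 0h the shares were 12.4% and 9.86%.

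Of 22 genes listed as AP-1 targets, with earlier results of these data known, 15 were tested. Whether AP-1 controls any of them in these cells was not tested. At 2h against 0h 7 were higher and 2 lower (all genes 11.4% and 9.68%). At 4h against 0h 8 were higher and 3 lower (median 0.49, all genes -0.02). From 2h to 4h 4 were higher and 1 lower (all genes 3.8% and 3.52%), and from 4h to rev 2 and 4 (7.93% and 8.43%). For rev compared with 0h 6 were higher and 0 lower (all genes 12.4% and 9.86%). Plaur, the urokinase receptor, had 0.715 ± 0.425 CPM at 0h and rose to 7.79 ± 1.41 at 2h and 17.4 ± 4.02 at 4h (4h against 0h 4.40, SE 0.25, adjusted p 9.49e-16). In rev Plaur was at 3.30 ± 0.828 CPM, so that it fell by 2.499 on the log2 scale (SE 0.20, adjusted p 1.53e-11). Plaur thus went on rising between 2h and 4h (1.12, SE 0.16, adjusted p 7.10e-06), when Fos and Jun fell. Hbegf, an EGF receptor ligand, was higher by 1.42 at 4h against 0h (SE 0.15, adjusted p 2.21e-09) and fell by 1.94 in rev against 4h (SE 0.16, adjusted p 6.11e-11), and Hmox1, heme oxygenase, was higher by 0.80 at 4h (SE 0.09, adjusted p 1.15e-08). Listed genes that fell at 4h against 0h were Fgf4, Vegfa (-0.93, SE 0.09, adjusted p 1.34e-09) and Spp1 (-0.19, SE 0.07, adjusted p 0.0388). Fgf4, the main FGF ligand of these cells, had 130 ± 12.5 CPM at 0h and 62.6 ± 17.1 at 4h (-1.09, SE 0.09, adjusted p 3.48e-12). In rev Fgf4 was at 166 ± 19.1 CPM, above 4h by 1.45 (SE 0.09, adjusted p 7.09e-15). The 8 higher genes of the 15 at 4h stand beside 17.2% of all genes, and the 3 lower ones, beside 16.8%, are near the background. Fgf4 and Vegfa moved opposite to Plaur and Hbegf both at 4h against 0h and from 4h to rev.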

How the data were processed

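The authors deposited raw read counts per gene for 16 libraries of RNA depleted of ribosomal RNA. Per the submitters' processing notes, bcl2fastq 2.19.1, STAR 2.5.3a and the mm10 build were used. The counting tool, its annotation and its strand setting are not given in the sources used here. The titles of the samples gave each library its group, clone and replicate, and no 2 libraries were identical.

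Of the 52636 identifiers, 147 had no symbol in GENCODE M21. Counts were fitted in R 4.3.3 with edgeR 4.0.16 (limma 3.58.1) as group plus clone over all 16 libraries, with filterByExpr (12215 genes), TMM factors (0.463 to 1.47) and two-sided quasi-likelihood tests, adjusted by Benjamini-Hochberg over all tested genes at 0.05. A model of the 8 group and clone combinations tested differences in response. Correlations used log2 CPM with a prior count of 2. The fit was also run on simulated counts with changes in the 4h group alone and no clone effect, a simpler setting than these data. Its outcome is not reported here. Alternatives were RLE factors, library size alone, no filter, a mean of at least 1 CPM, no clone term, a replicate block, only the 2 groups compared, DESeq2 1.42.0, removal of the 8 most abundant models, longest-transcript lengths and leaving out each library. The genes and lists were chosen with earlier results of these data known. From each list up to 3 genes per direction with the smallest adjusted p at 4h against 0h and at least 5 CPM in 0h or 4h were named, and their values in other comparisons were added after being seen. Jdp2, Nfe2l3, Mafa and Cebpd, which were below that level, were also named. One gene that this rule selected is not reported here.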

Additional observations from a re-analysis of the deposited data

Results flagged for a closer look

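Atf3, which did not pass the low-count filter, was called for a difference between the clones in its response at 4h against 0h. In the fit of group and clone combinations without the low-count filter, the log2 fold change in clone 8 minus that in clone 4 was -3.66 (SE 0.95, edgeR adjusted p 0.0376 over 31361 genes). Within clone 8 the change was -3.09 (SE 0.63, adjusted p 6.10e-05), and within clone 4 it was 0.57 (SE 0.67, adjusted p 0.859). At 0h Atf3 was higher in clone 8 than in clone 4 by 2.32 (SE 0.53, adjusted p 9.98e-04). The counts behind these values were 1 and 5 in clone 4 and 21 and 24 in clone 8 at 0h, and 9 and 6 in clone 4 and 3 and 0 in clone 8 at 4h. In none of the 40 groups of 4 libraries (10 genes, 4 groups) did a single library stand apart by Dixon's criterion.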

How the results depend on the processing

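DESeq2, the replicate block, the filter at a mean of 1 CPM and removal of the 8 most abundant models kept the direction and the call of all 40 gene and comparison pairs. Replicate numbers showed no pairing common to both clones (mean r 0.0132, range -0.318 to 0.210, 4 of 12 pairs over 0.1, 6107 genes). Between 0h and 2h, 0h and 4h, and 2h and 4h, r was 0.210, 0.130 and 0.178 in clone 8. In clone 4 the same pairs gave 0.103, -0.318 and -0.165, so a weak pairing in clone 8 alone remains possible. With the replicate block the counts of called genes were 6, 7, 2, 4 and 3, as without it. With library size alone the median of all genes moved to -0.41 in rev against 4h and to -0.32 in rev against 0h. There 1 of the 8 genes instead of 3 was called in rev against 0h and 0 instead of 2 for the clone, and leaving out single libraries gave 1 to 2 for the clone. Sign changes concerned values near 0: Jund in rev against 4h (-0.0055 with RLE factors, -0.41 with library size alone, -0.012 without a filter, -0.0037 with only the 2 groups, and -0.092 to 0.15 over single libraries left out), Jund at 2h (-0.0019 to 0.11 over single libraries left out) and in rev against 0h (-0.080 with library size alone), Fosl2 in rev against 4h (-0.21 with library size alone) and Mafk at 4h against 2h (-0.023 with only the 2 groups, -0.065 to 0.20 over single libraries left out). Library size alone also ended the Mafk calls at 2h (adjusted p 0.255) and 4h (0.0629) and made the Jun fall in rev against 4h a call (-1.20, adjusted p 0.0213). The cause was not tested.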
